A study of Arabidopsis thaliana with 26 samples.

Results

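A set of 12 genes stood above their level before transfer at 9, 12 and 15 min in Arabidopsis thaliana roots, whichever salt the roots were moved into, out of 13513 probe sets that the array annotation ties to 1 gene. Wild-type Columbia plants had grown for 14 days in hydroponics on ammonium succinate as their nitrogen source and were held without nitrogen for 24 h in continuous light. Plants were then moved onto refreshed medium with 1 mM KNO3, the nitrate treatment, or with 1 mM KCl, the mock treatment, and roots were taken 3, 6, 9, 12, 15 and 20 min later. Roots taken before the transfer are called time 0. Each of the 13 groups had 2 arrays, described in the study's methods as biological replicates, which gave 26 Affymetrix ATH1 arrays.

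The 12 genes were chosen on measured values. Signals were put on a log2 scale after adding 32, and a probe set was kept when its mean signal over the 26 arrays was 100 or more, when the KNO3 mean and the KCl mean each lay 0.5 or more above time 0 at 9, 12 and 15 min, and when the salts differed by at most 0.4 at 9 min. Of 8617 probe sets with 1 gene and enough signal, 79 met the condition in KCl, 23 of these met it in KNO3 too, and 13 of the 23 had the salts within the limit. STZ, also called ZAT10, was then left out by name. The probe sets just inside the 0.5 limit were AT2G41640, with a smallest rise of 0.51, AT2G36220 with 0.53 and AT5G02230 with 0.56. Just outside were BGLU40 with 0.49, AT1G14480 with 0.48 and AT5G08240 with 0.47. All values at 9, 12 and 15 min, and all differences from time 0, are therefore given as a description with no test. Tests were run on the arrays at 3, 6 and 20 min, which entered the choice only through the mean signal over the 26 arrays. No tested difference used time 0.

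Moving a plant to new liquid touches and bends its roots and changes the solution around them, and plant cells answer touch, wounding and a shift in solutes with fast ion fluxes, among them calcium entry. Genes that answer such handling are known for rising within minutes. Nitrate itself is both a nutrient and a signal for roots, so a mock transfer into a salt with the same potassium and no nitrate is the usual way to set handling apart from nitrate. Time 0 roots were not transferred in this study, so that contact, fresh medium, the potassium salt and the minutes that passed cannot be told apart as sources of a rise over time 0.

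The annotation used here gives the 12 genes as locus tags alone, with no name and no function, so no role is stated for any of them. The numbers of the choice were met by 34 probe sets of any annotation, 21 of which had no gene listed. By their tags the 12 genes are spread over all nuclear chromosomes, and 1 pair lies close together. AT5G52710 and AT5G52750 stand on chromosome 5 with 3 protein-coding genes between them, 2 of which had a probe set here.

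The arrays at 3 and 6 min stood apart from the other 18. Their bacterial spike-in controls averaged 12.2 to 13.1 on the log2 scale over 18 probe sets, against 9.68 to 10.9 on the other arrays, and replicates correlated less closely, with a median of 0.928 against 0.962. The spread between replicates of the 12 genes was larger there too, with an SD of 0.35 against 0.18 on the log2(signal + 32) scale. A step between these early arrays and the others therefore cannot be told apart from that difference between the sets. Time 0 is among the others, so this holds for any rise or fall from time 0 to 3 or 6 min. The salts at 1 time point, by contrast, were always compared within 1 of these sets. Root genes gave a clear signal on all arrays, where 3 of 27 listed could be measured. The beta-glucosidase gene PYK10 read 25024 to 36269 on the early arrays, against 9700.5 to 15480 on the others. EXPA7 and EXPA18, the other root genes measured, overlapped between these sets of arrays. The 3 measured leaf genes (RCA, LHCB4.1 and PSAE-1, of 41 listed) summed to 2181 to 4952 on KNO3 12 min replicate 2 and KNO3 15 min replicate 1, against 320.5 to 818.6 on the other 24. Both of those arrays took part in the choice of genes. Without them the same numbers gave 13 genes, 10 of the 12 among them, and AT1G60750 and AT5G52750 were lost.

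Across the 12 genes the mean rise over time 0 from 9 to 15 min, over both salts, ran from 0.64 for AT5G52750 to 1.59 for AT4G29780 on the log2(signal + 32) scale. In RNA from whole roots, more RNA per cell and more cells that carry it cannot be told apart. All 12 arrays at 9, 12 and 15 min stood above both time 0 arrays for each of the 12 genes, a pattern that 2.17% of the 22746 probe sets showed and that the choice itself favours. Mean rises above 1 were seen for 3 genes, and these 3 also met the numbers whichever of the 14 arrays at 0, 9, 12 and 15 min was left out. They were AT4G29780, AT5G06730 and AT3G02840.

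AT4G29780 had the largest rise. Its signal was 146 and 189.8 at time 0. In KNO3 it read 264.5 and 305.5 (3 min), 466 and 368 (6 min), 417 and 448 (9 min), 617 and 467 (12 min), 830.4 and 731 (15 min), and 564 and 698 (20 min). In KCl it read 332 and 383 (3 min), 393 and 336 (6 min), 473 and 426.5 (9 min), 654 and 658 (12 min), 702.5 and 547 (15 min), and 432 and 621 (20 min). Every array after transfer was thus above both arrays at time 0, with the highest mean at 15 min in KNO3 and at 12 min in KCl. Its rise from time 0 to 3 and 6 min cannot be told apart from the difference between the early and the other arrays. The mean rise at 15 min was 2.03 in KNO3 and 1.71 in KCl. It was the member that kept most of its rise among those above 1, with 109% of its 9 to 15 min rise left at 20 min in KNO3 and 92.2% in KCl.

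AT3G02840 had its highest mean at 9 min in both salts. Its signal was 77.9 and 79.4 at time 0. At 3 min it read 135 and 115 in KNO3, against 161.5 and 270.5 in KCl. At 6 min it read 96.7 and 183 in KNO3, against 148 and 129.5 in KCl. At 9 min, past the early arrays, it read 281 and 262 in KNO3, against 342.5 and 302 in KCl. At 20 min it was 198 and 225 in KNO3, against 161.5 and 158 in KCl. Both KNO3 arrays were above both KCl arrays at the last time point, and both salts were still above time 0. The share of its 9 to 15 min rise left at 20 min was 85.4% in KNO3 and 57.5% in KCl, the lowest in KCl among the 3 largest rises. The difference between the salts at 20 min was 0.34, with an SE of 0.23 and an adjusted p of 1 from limma.

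AT5G06730 was already high in KCl at the first time point. Its signal was 99.3 and 122 at time 0, and at 3 min 219 and 179 in KNO3, against 402.5 and 411.5 in KCl. At 15 min it spread widely, with 467 and 297 in KNO3, against 334 and 512 in KCl. The salts did not overlap at 3 min and overlapped at 15 min. At 20 min, 74.5% of its 9 to 15 min rise was left in KNO3, the lowest share in that salt among the 3 largest rises, and 68.9% in KCl.

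**Figure D1:**
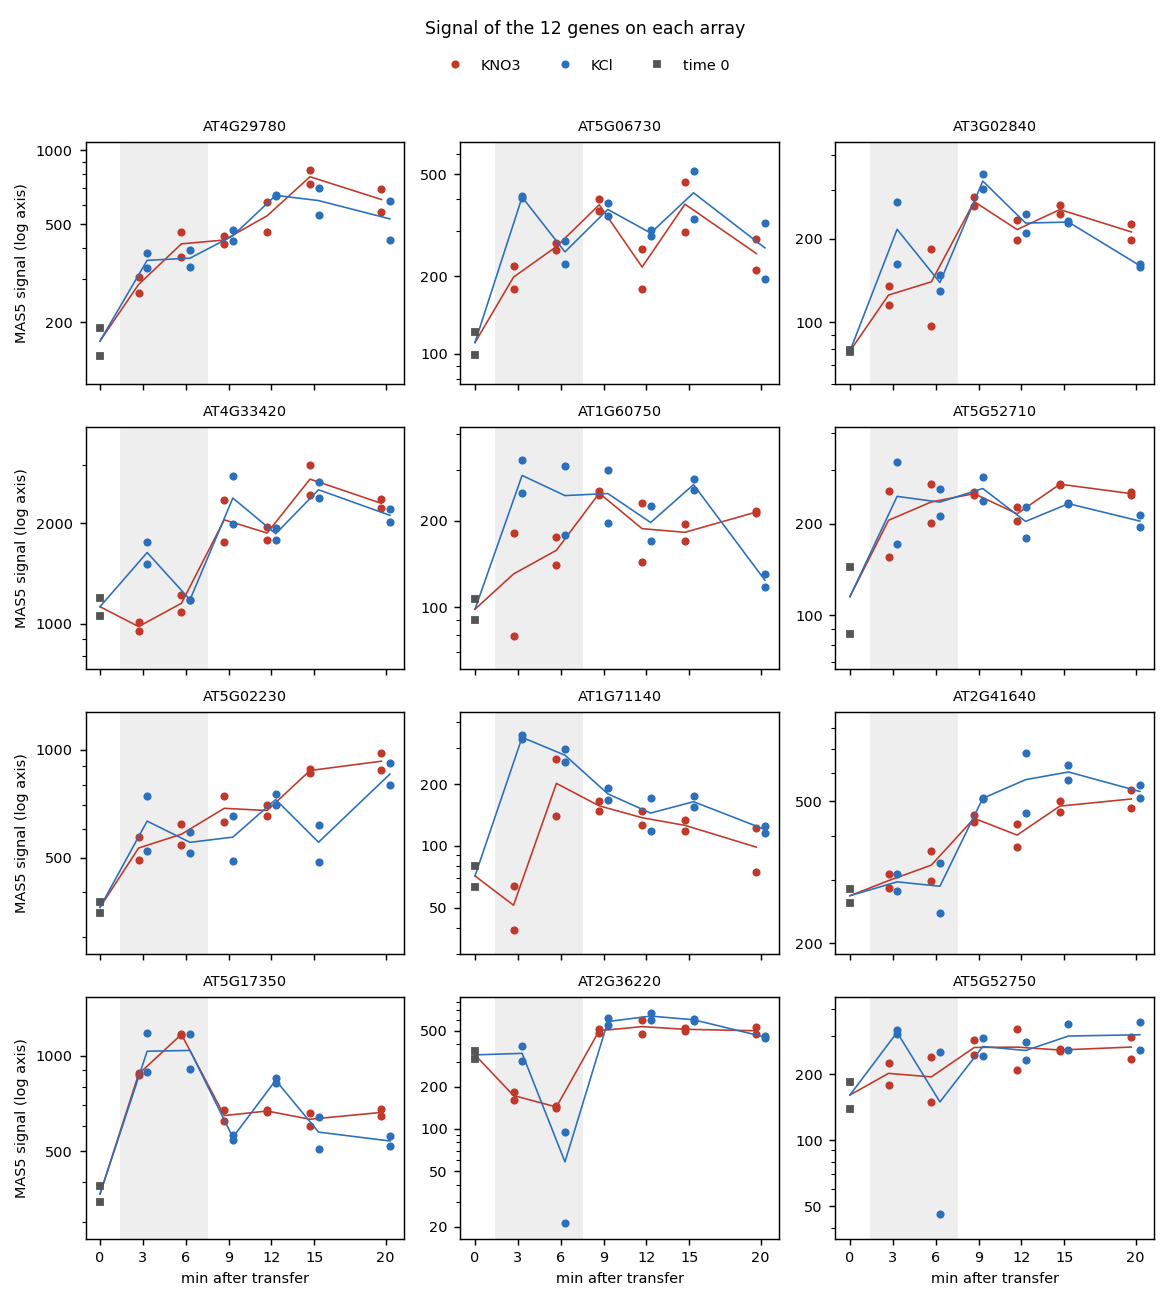
MAS5 signal (log axis) of each of the 12 genes against minutes after transfer, with a point for each array, red for KNO3, blue for KCl and grey squares for time 0. Lines join the group means, and the shaded band marks the 8 arrays at 3 and 6 min. AT4G29780 has its highest mean at 15 min in KNO3 and at 12 min in KCl. AT1G71140 is low at 3 min in KNO3 alone, and AT2G36220 is below time 0 in both salts at 6 min and above it from 9 min on. Steps into or out of the band cannot be told apart from the difference between the early and the other arrays.

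The other 9 genes rose less, with mean rises from 9 to 15 min of 0.95 or under, and they did not follow a single course. Averaged over the salts, AT5G17350 and AT1G71140 had their highest mean at 6 min, and AT1G60750 and AT5G52710 at 9 min. AT2G36220 followed (12 min), then AT4G33420 and AT2G41640 (15 min), and last AT5G02230 and AT5G52750 (20 min). The highest levels were those of AT4G33420. Its signal was 1194 and 1058 at time 0 and reached 2996 and 2439 in KNO3 at 15 min, against 2388 and 2661 in KCl. The late course of AT5G02230 stood out in its size, since at 20 min it read 878 and 982 in KNO3, against 796 and 917 in KCl and 351 and 376 at time 0. Its 20 min rise was 133% of its 9 to 15 min mean in KNO3 and 167% in KCl.

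AT2G41640 stayed near its time 0 level up to 6 min and was raised from 9 min. Its signal was 284 and 259 at time 0, and at 6 min 299 and 363 in KNO3, against 334.5 and 243 in KCl. At 9 min it read 457 and 438 in KNO3, against 507 and 512 in KCl, and at 15 min 501 and 467 in KNO3, against 633 and 575 in KCl. At 12 min the signal was 433 and 371 in KNO3, against 464.5 and 685 in KCl. Both KCl arrays were above both KNO3 arrays at 9, 12 and 15 min, and every array from 9 min on was above both at time 0.

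AT5G52710, by contrast, was above both time 0 arrays on every array from 3 min on, the early arrays with their limit among them. Its signal was 144 and 86.5 at time 0, and at 3 min 256 and 155 in KNO3, against 321 and 172 in KCl. At 15 min it read 269 and 271 in KNO3, against 234 and 232 in KCl, and at 20 min 249 and 254 in KNO3, against 195 and 214 in KCl. Its replicates were far apart at time 0 and at 3 min and close together at 15 and 20 min, where both KNO3 arrays were above both KCl arrays.

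AT1G60750 had an uneven course in both salts. In KNO3 it read 140 and 175 at 6 min, 245 and 254 at 9 min, 144 and 231 at 12 min, and 194.5 and 170 at 15 min. In KCl it read 179 and 310.0 at 6 min, 196 and 301 at 9 min, 170 and 224 at 12 min, and 278 and 256 at 15 min. The salts overlapped at 9 and 12 min, while at 6 min and at 15 min both KNO3 arrays were below both KCl arrays.

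Taking all 12 together, the median rise over time 0 in KNO3 was 0.39 (3 min), 0.61 (6 min), 0.86 (9 min), 0.75 (12 min), 0.92 (15 min) and 0.94 (20 min). In KCl it was 0.93 (3 min), 0.76 (6 min), 1.02 (9 min), 0.90 (12 min), 0.99 (15 min) and 0.79 (20 min). The set was thus near its later level at 3 min in KCl and well below it in KNO3. At 3 min the rise was 0.5 or more for 6 genes in KNO3 and for 10 in KCl. Of probe sets with a mean signal of 100 or more, 18.7% in KNO3 and 22.7% in KCl rose that much. Those shares were 23.4% and 25.9% at 6 min, and 2.31% and 4.06% at 9 min. A step into or out of 3 and 6 min cannot be told apart from the difference between the early and the other arrays. At 20 min, which entered the choice only through the mean signal, all 12 genes were still above time 0 in both salts. The rise was 0.5 or more for 11 genes in KNO3 and for 10 in KCl, against 3.44% and 2.91% of probe sets with a mean signal of 100 or more. The same time 0 arrays enter these rises and the choice, so that the 20 min values are not independent of it.

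**Figure D2:**
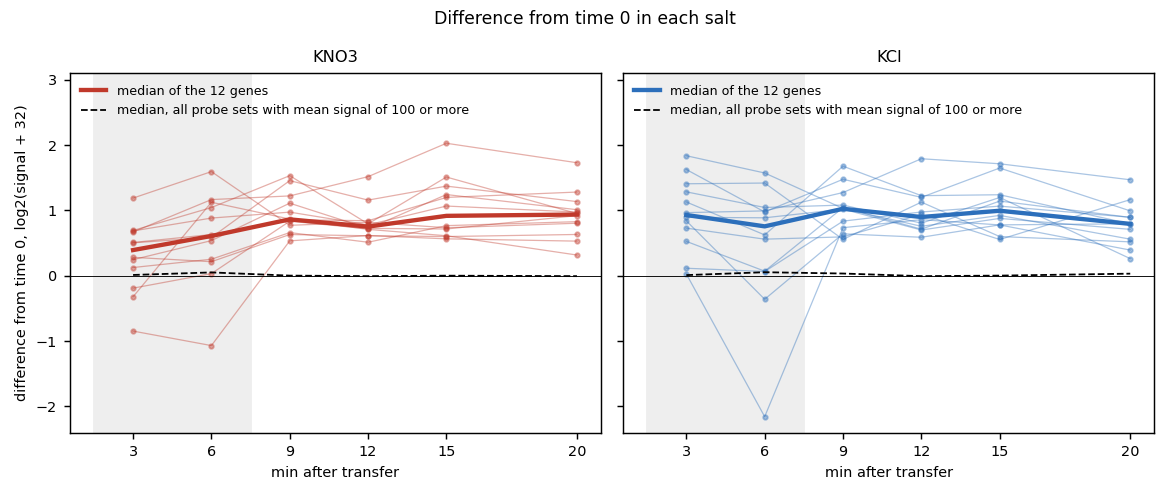
Difference from time 0 on the log2(signal + 32) scale against minutes after transfer, for KNO3 on the left and KCl on the right, with a thin line for each of the 12 genes, a thick line for their median and a dashed line for the median of all probe sets with a mean signal of 100 or more. The thick line stands at 0.39 in KNO3 and 0.93 in KCl at 3 min, and at 0.94 in KNO3 and 0.79 in KCl at 20 min.

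At 3 min the 12 genes were lower in KNO3 than in KCl. The median KNO3 minus KCl difference was -0.59, against -0.02 over all probe sets, and 11 of the 12 differences were below 0. Of the 12 genes, 3 passed the test as lower in KNO3, limma with Benjamini-Hochberg adjustment over 22746 probe sets, where 1.20% of all probe sets passed in that direction. None of the 12 passed as higher, where 1.39% of all probe sets did. Before adjustment 6 of the 12 had a p under 0.05 from limma, a share that was not counted over all probe sets. Both KNO3 arrays lay below both KCl arrays for 9 of the 12 genes, a pattern that 19.4% of all probe sets showed. The reverse pattern was seen for 0 of the 12, against 15.6% of all. The 12 values come from the same 4 arrays, so their shared direction is not 12 separate observations.

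AT1G71140 had the widest gap between the salts at 3 min. Its signal was 39.0 and 64.1 in KNO3, against 329 and 344.5 in KCl. The KNO3 arrays were near the time 0 readings of 80.1 and 63.0, whereas the KCl arrays held the highest values of the gene in the whole time course. The difference was -2.16 with an SE of 0.26 (adjusted p = 0.000201, limma). By 6 min the gap had narrowed, with 140 and 263 in KNO3, against 255 and 297 in KCl, and the groups overlapped.

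AT4G33420 was also lower in KNO3 at 3 min, with a signal of 1009 and 953, against 1764 and 1509 in KCl. The KNO3 arrays were below both arrays at time 0 and the KCl arrays above them. The difference was -0.72 with an SE of 0.15 (adjusted p = 0.0177, limma). For AT5G06730, whose values at 3 min are given above, the difference was -0.93 with an SE of 0.25 (adjusted p = 0.0468, limma).

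AT1G60750 and AT2G36220 had differences of the same order that missed the threshold. AT1G60750 read 182 and 79.5 in KNO3 at 3 min, against 325 and 249 in KCl, a difference of -1.04 with an SE of 0.29 (adjusted p = 0.063, limma). AT2G36220 read 161 and 183.5 in KNO3, against 302 and 387 in KCl, a difference of -0.87 with an SE of 0.25 (adjusted p = 0.0673, limma). In both genes the 2 salts did not overlap. AT2G41640 was the member above 0, at 0.01 with an SE of 0.17, with 286 and 313 in KNO3, against 281 and 313 in KCl.

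The calls at 3 min rest on a spread estimated from all 26 arrays. Within the 8 arrays at 3 and 6 min alone the differences are the same and 0 of the 12 genes passed, with adjusted p of 0.0865 for AT1G71140, 0.151 for AT4G33420 and 0.362 for AT5G06730 from limma. AT1G71140 passed with each of the 4 arrays left out in turn, while AT5G06730 missed the threshold each time and AT4G33420 missed it without KCl 3 min replicate 1 (adjusted p = 0.0552) and without KNO3 3 min replicate 2 (adjusted p = 0.0861).

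At 6 min the median difference between the salts was 0.07, against -0.04 over all probe sets. AT2G36220 was the single member that passed, as higher in KNO3, where 0.312% of all probe sets passed in that direction, and 0 of the 12 passed as lower, where 0.325% did. Its signal was 145 and 141 in KNO3, against 94.7 and 21.5 in KCl. All of these 4 arrays were far below the time 0 readings of 358 and 313.5, which come from the other set of arrays. The difference was 1.09 with an SE of 0.25 (adjusted p = 0.049, limma). It rests on the low reading of KCl 6 min replicate 2, without which it was 0.47 (adjusted p = 0.313), and it also missed the threshold without either KNO3 array (adjusted p = 0.0982 to 0.134).

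At 20 min none of the 12 genes passed between the salts with limma, while 0.659% of all probe sets passed as higher in KNO3 and 0.0703% as lower. The smallest adjusted p was 0.817, and 1 gene had an unadjusted p under 0.05, a share that was not counted over all probe sets. The median difference was 0.13, against -0.04 over all probe sets. Both KNO3 arrays lay above both KCl arrays for 6 genes, a pattern that 16.8% of all probe sets showed, and 0 genes had both below, against 27.8% of all. The gene with the smallest p was AT1G60750, which read 216.5 and 212 in KNO3, against 131 and 118 in KCl and 107 and 90.3 at time 0. Its groups were well apart, at a difference of 0.66 with an SE of 0.29 (adjusted p = 0.817, limma). Of its 9 to 15 min rise, 108% was left (20 min) in KNO3 and 25.4% in KCl.

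In between, at the times used in the choice, the median KNO3 minus KCl difference was -0.05 (9 min), -0.09 (12 min) and -0.02 (15 min). Single genes ran from -0.22 to 0.263 at 9 min, from -0.463 to 0.079 at 12 min and from -0.482 to 0.645 at 15 min. The upper end at 15 min was AT5G02230, with 865 and 887 in KNO3, against 487 and 618 in KCl. These values are set in part by the choice, which bound the salts to each other at 9 min.

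**Figure D3:**
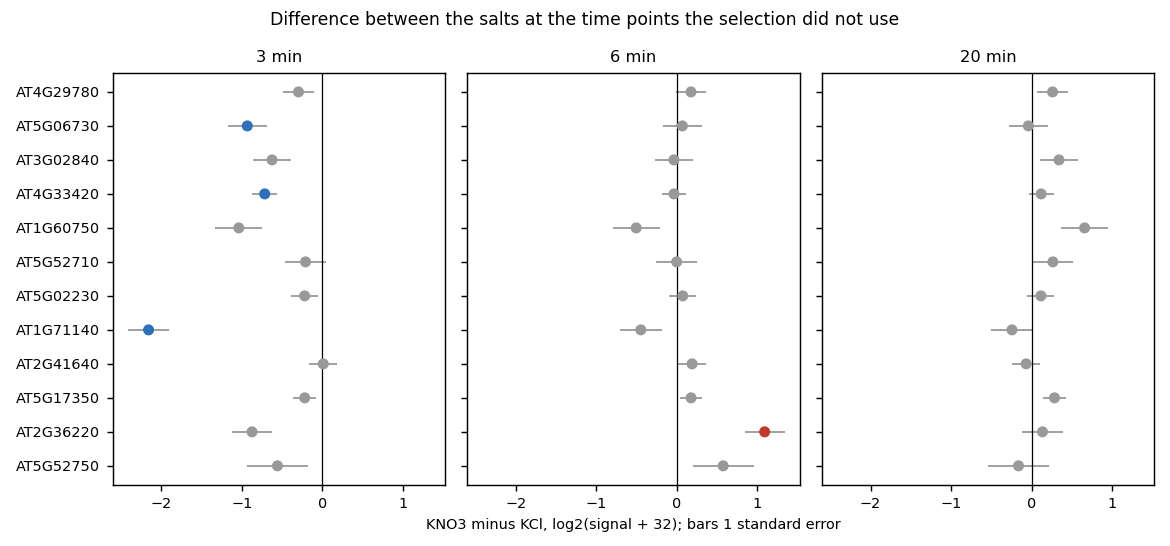
KNO3 minus KCl difference of each of the 12 genes on the log2(signal + 32) scale at 3, 6 and 20 min, with bars of 1 standard error. Blue points passed the test as lower in KNO3, the red point as higher, and grey points did not pass. At 3 min the points lie between -2.16 and 0.01, and at 20 min between -0.24 and 0.66.

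The gap between the salts was itself compared between time points. From 3 to 6 min it moved upward in all 12 genes, with a median of 0.56, where 47.0% of all probe sets moved up. Of the 12, 2 genes passed as higher, where 0.497% of all probe sets did. AT2G36220 moved by 1.96 with an SE of 0.35 (adjusted p = 0.0087, limma) and AT1G71140 by 1.71 with an SE of 0.37 (adjusted p = 0.0302, limma). From 3 to 20 min the median shift was 0.70, and 2 genes passed as higher against 0.708% of all probe sets. AT1G71140 moved by 1.92 with an SE of 0.37 (adjusted p = 0.0102, limma) and AT1G60750 by 1.70 with an SE of 0.41 (adjusted p = 0.0471, limma). Both comparisons share the 4 arrays at 3 min. From 6 to 20 min none of the 12 genes passed with limma, while 0.501% of all probe sets passed in either direction. Of the 12, 2 had an unadjusted p under 0.05, a share that was not counted over all probe sets.

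Between 3 and 6 min, averaged over both salts, the level of the set as a whole moved by a median of 0.001, against 0.09 over all probe sets. AT2G36220 was the single member that passed, as lower at 6 min, where 2.94% of all probe sets passed in that direction and 4.37% as higher. Its signal at 6 min was 145 and 141 in KNO3 and 94.7 and 21.5 in KCl, against 161 and 183.5 in KNO3 and 302 and 387 in KCl at 3 min. The mean over both salts differed by -1.20 with an SE of 0.18 (adjusted p = 0.000711, limma), and the salts were unequal in it. Relative to time 0 the gene stood at -1.07 in KNO3 at 6 min, against -0.85 at 3 min, and at -2.16 in KCl at 6 min, against 0.03 at 3 min. AT1G71140 lay 0.59 higher at 6 min with an SE of 0.18 (adjusted p = 0.0546, limma).

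Between 6 and 20 min the members split. Every such difference runs from the early to the other arrays, and cannot be told apart from the difference between them. The median change over the 12 genes was 0.48 in KNO3 and 0.32 in KCl, against -0.19 in KNO3 and -0.18 in KCl over all probe sets, and -0.045 in KNO3 and -0.032 in KCl over probe sets with a mean signal of 100 or more, the floor that the 12 genes had to pass. The shift of all probe sets was -0.01 in both salts after quantile normalization. In KNO3, 5 genes passed as higher at 20 min and 2 as lower, where 13.2% of all probe sets passed as higher and 25.0% as lower. In KCl, 5 passed as higher and 3 as lower, where 14.2% passed as higher and 26.4% as lower. Among the 13647 probe sets above the 40th percentile of mean signal, tested alone, 2712 passed as higher and 2784 as lower in KNO3, and 2902 as higher and 2837 as lower in KCl. After quantile normalization 7 members passed as higher and 1 as lower in KNO3, with 3541 and 3501 of all probe sets, and 6 as higher and 1 as lower in KCl, with 4073 and 3906 of all.

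Among those higher at 20 min, AT2G36220 changed most. It read 469 and 528 in KNO3 at 20 min, against 145 and 141 at 6 min, a difference of 1.60 with an SE of 0.25 (adjusted p = 0.000104, limma). In KCl it read 440.3 and 460.4 at 20 min, against 94.7 and 21.5 at 6 min, a difference of 2.55 with an SE of 0.25 (adjusted p = 1.08e-06, limma). AT2G36220 was thus below time 0 at 6 min and above it at 20 min in both salts, where the 6 min readings alone come from the early arrays. AT4G33420 differed by 0.98 in KNO3 and 0.82 in KCl, AT5G02230 by 0.65 in KNO3 and 0.60 in KCl, and AT2G41640 by 0.57 in KNO3 and 0.83 in KCl. These 4 genes passed in both salts, while AT4G29780 passed in KNO3 at 0.56 (adjusted p = 0.0245, limma) and not in KCl at 0.48 (adjusted p = 0.0511, limma).

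AT5G52750 passed as higher in KCl alone. It read 348 and 259 at 20 min, against 253 and 46.3 at 6 min, a difference of 1.15 with an SE of 0.38 (adjusted p = 0.0202, limma). As for AT2G36220, the lowest reading came from KCl 6 min replicate 2, and without that array the difference was 0.22 (adjusted p = 0.602). In KNO3 the difference was 0.42 with an SE of 0.38 (adjusted p = 0.403, limma).

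AT5G17350 was the clearest of the members that were lower at 20 min. In KNO3 it read 645 and 682 at 20 min, against 1172 and 1167 at 6 min, and in KCl 520.0 and 558 at 20 min, against 909 and 1172 at 6 min. All arrays at 20 min lay below all arrays at 6 min, and above the 345 and 388.5 of time 0. The differences were -0.79 in KNO3 (adjusted p = 0.000354) and -0.90 in KCl (adjusted p = 0.000101), each with an SE of 0.14 from limma. With 1172 at its highest in KNO3 and 1182 in KCl, this gene was higher at 3 and 6 min than at any later time in both salts. That step too runs between the early and the other arrays.

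AT1G71140 was lower at 20 min too, with differences of -0.81 in KNO3 (SE 0.26, adjusted p = 0.0191) and -1.01 in KCl (SE 0.26, adjusted p = 0.00442), from limma. In KNO3 it read 74.9 and 123 at 20 min, against 140 and 263 at 6 min, and in KCl 115.5 and 125 at 20 min, against 255 and 297 at 6 min. The call in KNO3 was lost without KNO3 6 min replicate 2, at -0.42, and without KNO3 20 min replicate 1, at -0.54. AT1G60750 passed as lower in KCl alone, with 131 and 118 at 20 min, against 179 and 310.0 at 6 min, a difference of -0.78 with an SE of 0.29 (adjusted p = 0.0383, limma). It fell short of the threshold without KCl 6 min replicate 2, at -0.43, and without either KCl 20 min array, at -0.84 and -0.72.

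**Figure D4:**
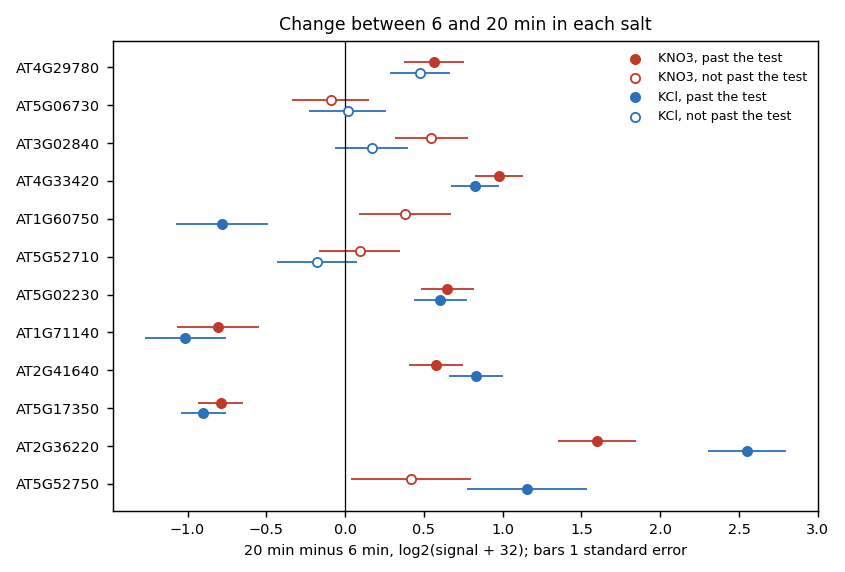
Difference between 20 and 6 min for each of the 12 genes on the log2(signal + 32) scale, in KNO3 (red) and KCl (blue), with bars of 1 standard error. Filled points passed the test and open points did not. Each difference runs from the early to the other arrays and cannot be told apart from the difference between those arrays. AT2G36220 lies farthest right at 1.60 in KNO3 and 2.55 in KCl, while AT5G17350 and AT1G71140 lie left of 0 in both salts.

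Genes named in textbooks for responses to touch, wounding or calcium were looked for beside the 12. The lists are of gene symbols and the 12 genes carry locus tags alone, so that whether any of the 12 belongs to these families cannot be read from them. Of 80 calcium sensors, kinases and pumps 8 could be measured by a probe set with 1 gene, and 0 of the 8 passed between the salts at 3, 6 or 20 min with limma. They were AT1G76640, CML23, CML30, CML37, CML38, CML41, CML42 and CML43, and the rest of that list was not measured. Over all probe sets 1.39% passed as higher in KNO3 and 1.20% as lower at 3 min. The shares were 0.312% and 0.325% at 6 min, and 0.659% and 0.0703% at 20 min. A count of 0 in a list this short is near those shares. The list named for surface immune receptors and ubiquitin ligases had 9 of 81 measured, which were EFR, BIK1, SAG101, EXO and PUB22 to PUB26. The name of a list need not describe each gene on it. These 9, the 12 of 55 auxin and cytokinin genes and the 5 of 48 jasmonate genes likewise had 0 passing between the salts at these times. Their median differences at 3 min were 0.02 for the calcium list, -0.17 for the immune list, -0.02 for the auxin and cytokinin list and 0.02 for the jasmonate list, against -0.59 for the 12 genes. Of 15 measured cell wall loosening genes of 45 listed, 1 passed as higher in KNO3 at 3 min and at 6 min. This was XTH26, a xyloglucan endotransglucosylase/hydrolase named here after its values were seen, at 1.51 with an SE of 0.37 at 3 min (adjusted p = 0.0325, limma) and 1.69 with an SE of 0.37 at 6 min (adjusted p = 0.0376, limma).

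From 6 to 20 min, where 13.2% of all probe sets passed as higher and 25.0% as lower in KNO3, and 14.2% and 26.4% in KCl, the calcium list had 1 gene higher and 2 lower of 8 in KNO3, and 1 higher and 1 lower in KCl. The immune list had 0 higher and 0 lower of 9 in KNO3, and 2 higher and 0 lower in KCl, and the cell wall list had 2 higher and 1 lower of 15 in KNO3, and 6 higher and 2 lower in KCl. The auxin and cytokinin list had 0 higher and 2 lower of 12 in each salt, and the jasmonate list had 2 higher of 5 in KNO3, and 1 higher in KCl. The remaining lists held 4 or fewer measured genes each, and the MYB and NAC, MAP kinase and heat shock lists held 0. None of the measured genes passed between the salts at 3, 6 or 20 min, again near the shares of all probe sets given above. Between 6 and 20 min the single AP2/ERF gene and the single zinc finger gene passed as lower in each salt. Of 4 WRKY genes 0 passed. Low oxygen genes passed as lower for 1 of 3 in KNO3 and 2 in KCl. The ethylene list had 1 higher of 2 in each salt, and the gibberellin and abscisic acid list 1 higher and 1 lower of 2.

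WRKY6, WRKY53 and STZ were kept out of the set by name, WRKY6 and WRKY53 being WRKY transcription factors and STZ a zinc finger protein, and their mean rises from 9 to 15 min were 0.07, 0.71 and 0.94. STZ alone met the numbers of the choice, and its signal was 1297 and 1403 in KNO3 at 20 min, against 878 and 905 in KCl and 818.5 and 959.6 at time 0.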

How the data were processed

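Roots were profiled on 26 ATH1 arrays in 13 groups of 2, grouped by the salt and time in the labels. The deposited values are linear intensity signals from MAS v5.0 at default settings, for which the methods give a target median of 150. The 2% trimmed mean was 500.0 on every array. The number of arrays, not a read depth, limits precision.

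Signals were tested as log2(signal + 32) with limma 3.58.1 (R 4.3.3, lmFit and eBayes with an intensity trend) in 1 fit of all arrays (13 residual degrees of freedom), with Benjamini-Hochberg adjustment over 22746 probe sets without the 64 control probe sets and a threshold of 0.05. On simulated data for KNO3 minus KCl at 20 min, over 22746 probe sets, 5, 32, 48 and 50 of 50 changed probe sets were recovered at log2 changes of 0.5, 1, 2 and 3, with 8 false calls. Genes came from the array annotation and RefSeq TAIR10.1. The text names all 12 genes, those at the edge of the choice, and the 3 left out. The members and the gene lists were chosen with earlier results of these data known. Alternatives were no offset, no trend, a filter on dim probe sets, quantile normalization, a replicate block, the early arrays alone, the other arrays alone and each array left out. A planned motif search was not run, since no promoter sequence was used here.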

Additional observations from a re-analysis of the deposited data

Results flagged for a closer look

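The gap between the salts differed between time points for 3 genes, by a test of the difference itself in limma. The KNO3 minus KCl difference of AT1G71140 was 1.711 higher at 6 min than at 3 min (SE 0.367, adjusted p = 0.0302) and 1.916 higher at 20 min than at 3 min (SE 0.367, adjusted p = 0.0102). That of AT2G36220 was 1.962 higher at 6 min than at 3 min (SE 0.353, adjusted p = 0.0087), and that of AT1G60750 was 1.697 higher at 20 min than at 3 min (SE 0.413, adjusted p = 0.0471). The 20 min arrays and the 3 min arrays lie on either side of the split between the 8 early and the 18 other arrays, whose part in these values was not tested.

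AT2G36220 passed with each of the 8 arrays compared left out in turn, at 1.34 without KCl 6 min replicate 2 (adjusted p = 0.00942) and between 1.80 and 2.58 without any other. AT1G71140 lost its call between 3 and 6 min without KCl 3 min replicate 2, KNO3 3 min replicate 1, KCl 6 min replicate 1 or KNO3 6 min replicate 2 (1.32 to 1.68), and between 3 and 20 min without KNO3 20 min replicate 2 (1.65) or KCl 20 min replicate 1 (1.87). AT1G60750 lost its call without KNO3 3 min replicate 2 (1.23), KCl 3 min replicate 1 (1.52) or any of the 4 arrays at 20 min (1.64 to 1.76), with the replicate number as a block (adjusted p = 0.0518) and without the intensity trend (adjusted p = 0.0639). In the 8 early arrays alone, the shifts of AT2G36220 and AT1G71140 between 3 and 6 min had adjusted p of 0.765 and 0.739.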

How the results depend on the processing

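Over 24 results for single genes, 132 of 151 results under other settings kept their call, 19 lost it and 0 changed sign, and with 1 array left out 80 of 116 kept it, 36 lost it and 0 changed sign. The number of genes that met the choice moved most with time 0. Leaving out 1 array gave 11 to 21 genes, with 21 without time 0 replicate 1 (10 of the 12 kept) and 20 without time 0 replicate 2 (8 kept). A minimum rise of 0.6 gave 7 genes, all of them shared, and quantile normalization gave 8, of which 7 were shared. These settings kept the fewest of the 12. With no offset there were 17 genes, all 12 among them, and a mean signal of 200 or more gave 9, all shared.

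At 3 min, 5 genes were lower in KNO3 when the dimmest 40% of probe sets were not tested and 5 after quantile normalization, against 0 in the 8 early arrays alone and 1 to 3 with 1 array left out (1 without KNO3 3 min replicate 2). At 6 min, 0 genes were higher in KNO3 with no offset, without the intensity trend, after quantile normalization, with the replicate block, in the 8 early arrays alone or without both arrays with raised leaf markers, a setting added after seeing the data, and 0 to 2 with 1 array left out (2 without KCl 6 min replicate 1). At 6 against 3 min, 1 gene was higher with no offset, without the trend or without the dimmest probe sets, and 0 to 1 with 1 array left out. Lower at 6 min were 0 genes in the 8 early arrays and 1 to 2 with 1 array left out. At 20 against 6 min, 1 gene was lower in each salt after quantile normalization, and leaving out 1 array gave 2 to 5 higher and 1 to 2 lower genes in KNO3, with 2 higher without KNO3 20 min replicate 2 and 3 without KNO3 6 min replicate 1, and 3 to 5 higher and 2 to 3 lower in KCl, with 3 higher without KCl 6 min replicate 2. Over all probe sets, 221 of 13647 were lower in KNO3 at 3 min without the dimmest 40%, and 293 of 22746 after quantile normalization. At 6 min, 1 to 143 of 22746 were higher in KNO3 in the settings with 0 genes. At 6 against 3 min, 719 were higher with no offset, 915 without the trend and 852 of 13647 without the dimmest. Lower in the 8 early arrays were 60. Such shares were not counted with 1 array left out. The cause of the changes between settings was not tested.

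Deviations of same-numbered arrays correlated above 0.1 in 5 of 78 pairs of groups and below -0.1 in 2 (range -0.152 to 0.146). No strong pairing by replicate number was thus visible, which cannot show whether same-numbered arrays came from the same experiment. With the replicate block, AT2G36220 at 6 min (adjusted p = 0.053) and AT5G06730 at 3 min (adjusted p = 0.0516) missed the threshold. Over all probe sets the 8 early arrays alone gave 5 higher and 14 lower at 3 min, against 316 and 273 in the fit of all arrays.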
